A study of Mus musculus with 10 samples.

Results

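The 6 livers described here came from mice heterozygous for Tgfbr2, which encodes the type II receptor of transforming growth factor beta (TGF-beta). They are the 6 of 10 libraries in the series whose titles name the heterozygous genotype, Tgfbr-/+, and they are called Tgfbr2+/- replicates 1 to 6 after the numbers in those titles. All 6 mice are described as males on a chow diet. The other 4 libraries are livers of wild-type (WT) littermates on the same diet, with no sex stated. Each liver was hybridised on a 2-colour array against the same reference, a pool of liver RNA from 6 WT mice, and every value below is a log2 ratio over that pool. The sources used here do not give age, strain background, the kind of mutant allele or whether any WT littermate also contributed to the pool. The question followed here is how far each heterozygous liver lay from the pool and how much the 6 livers differed among themselves. The 4 WT libraries enter no test and are given as ranges for description.

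TGF-beta binds the type II receptor, which then recruits and phosphorylates the type I receptor Tgfbr1, and that kinase passes the signal to the transcription factors Smad2 and Smad3. In liver the pathway is known for driving matrix production by stellate cells and for restraining hepatocyte growth. Because whole liver was measured, a difference in the share of a cell type and a difference in its RNA per cell cannot be told apart.

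The direction of the ratio, liver over pool, is likely but not stated by the labels, so "above" and "below" the pool hold only if it is right. It is least settled for Tgfbr2+/- replicate 5, whose column correlated at -0.32 (Pearson's r over all features) with WT replicate 1. Several results below are also given with its sign turned. Among the 6 heterozygous columns the correlations ran from -0.08, between replicates 4 and 6, to 0.52, between replicates 1 and 2. Replicate 3 lay nearest to the pool, with a median absolute log2 ratio of 0.05 against 0.07 to 0.11 in the other 5, and it was the library closest to 0 for 29.1% of all named genes. The number of arrays limits the precision, and since spot intensities were not used here no value carries its own error. Where 2 probes read the same gene, their profiles over the 6 livers correlated with a median r of 0.11 when their spread was under 0.1, and of 0.99 in the 5 pairs with a spread of at least 0.5. Of those 5 pairs, 4 had r over 0.8 and that of Macrod2 ran opposite, at r = -0.55.

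Tgfbr2 itself was represented by 2 probes that differed. Probe 10024401828 gave -0.82, -1.11, -1.04, 0.20, -0.86 and -0.60 in replicates 1 to 6, a mean of -0.70 ± 0.48 (SD, n = 6). Replicate 4 was thus the only library above the pool on this probe, and it lay within the WT range of -0.29 to 0.64, so the probe goes against the label of that library. Probe 10024408236 averaged 0.06 ± 0.17 (SD, n = 6), with 3 of 6 livers below the pool. It was at -0.03, 0.11, 0.28, -0.10, -0.12 and 0.24 in replicates 1 to 6, against a WT range of 0.04 to 0.23. On this probe replicate 4 lay below the pool and below that range, as did replicates 1 and 5. Neither probe passed at the level of single probes (limma adjusted p = 0.221 and 0.654), and the sources used here do not give which exon either one reads. The library labelled Tgfbr2+/- replicate 4 is kept below.

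Against the pool, 3 of 22095 features passed limma's test over the 6 livers (adjusted p under 0.05), and all 3 were lower. That is 0.0136% of features lower and 0.0% higher, while 1422 lower and 1660 higher features had an unadjusted p under 0.05. The test measures the mean of the 6 livers against their own spread and leaves out the spread of the pool, any dye bias and whatever is particular to the pooled mice. Nothing in the labels says more of the 6 samples than their numbers, so p-values refer to the spread between these samples.

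Hao2, a peroxisomal enzyme that oxidises long-chain 2-hydroxy acids, ranged from -1.39 to -0.69 with a median of -1.00. All 6 livers lay below the pool, at a mean of -1.02 ± 0.24 (SD, n = 6), which is 2.02-fold lower (limma adjusted p = 0.0193). The 4 WT livers were also below the pool for Hao2, from -1.00 to -0.01, and overlapped the heterozygous range. Eif4ebp3, a repressor of cap-dependent translation, ranged from -1.42 to -0.73 around a median of -1.06, a mean of -1.05 ± 0.28 (SD, n = 6) or 2.06-fold lower (limma adjusted p = 0.0307). Celsr1, an adhesion receptor of the cadherin family that acts in planar cell polarity, ranged from -0.76 to -0.45 around -0.54, a mean of -0.57 ± 0.12 (SD, n = 6) or 1.49-fold lower (limma adjusted p = 0.0193). For both genes the WT livers spanned the pool and more, from -1.49 to 1.47 for Eif4ebp3 and from -0.67 to 0.68 for Celsr1. The heterozygous livers spanned less than the WT livers for both genes, although replicate 6 lay below the lowest WT liver for Celsr1.

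The number of features past the threshold rested on single libraries. It was 0 with the sign of replicate 5 turned, 0 without replicate 1, 2 or 4, 1 (Hao2) without replicate 5 and 3 without replicate 6. Without replicate 3, the library nearest the pool, it was 28, of which 21 were lower and 7 higher. The lower ones then included Hao2, Eif4ebp3, Celsr1, Cyp2b10, Cyp2b23, Gstt3, Sult1d1, Insig2, Fkbp5, Got1, Cdkn1a, Lpin1 and Plin5, and the higher ones Pilra, Csf2ra, Ctss and Aif1. Without replicates 4 and 5 the only call was 2610507B11Rik, at -1.28 to -1.09 in replicates 1 to 3 and -0.93 in replicate 6. The 4 WT livers lay below the pool for this gene too, from -1.49 to -1.18.

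Signs alone, which need no variance estimate, were also counted. All 6 livers lay above the pool for 1152 features (5.21%) and below it for 716 (3.24%), so that 61.7% of the one-sided features were above. With each column centred on its median the split turned to 842 above and 893 below, 48.5% above, since the deposited columns sit slightly over 0. With the sign of replicate 5 turned every one of these features falls on both sides, and 875 others were above and 633 below in all 6. Among the 4 WT libraries 2055 features (9.30%) were above the pool in all 4 and 1311 (5.93%) below. Of the features above in all 6 heterozygous livers 20.8% were also above in all 4 WT livers, and of those below 9.78% were also below. The libraries share the pool, so these signs are not independent. Large consistent distances were all on the lower side: 26 one-sided features had a mean of -0.5 or less and 0 a mean of 0.5 or more. Of the 25 named genes among those 26, 23 had WT livers on both sides of the pool and 19 had the larger SD among the WT livers. By the WT shares given above, most of all features also had WT livers on both sides. The SD was larger among the WT livers for 36% of all named genes.

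**Figure D1:**
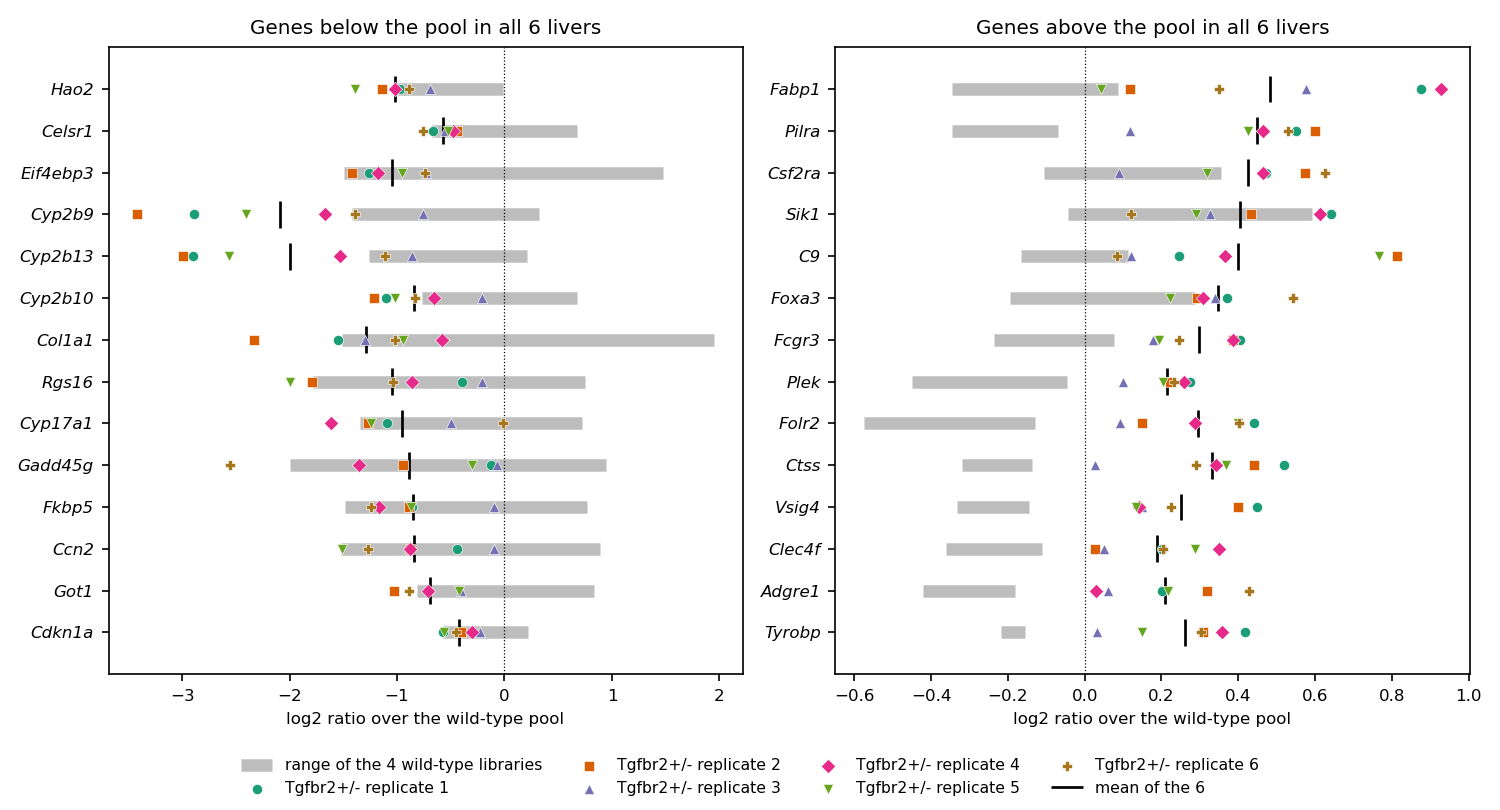
Each row is a gene whose 6 Tgfbr2+/- livers all lay on the same side of the wild-type pool, below it in the left panel and above it in the right, and the horizontal axis is the log2 ratio over the pool. Coloured symbols are the 6 livers, the black tick their mean and the grey bar the range of the 4 wild-type livers. Cyp2b9 and Cyp2b13 reach furthest below the pool, replicate 3 is the liver nearest the pool for most rows, and the grey bars of the macrophage genes Folr2, Ctss, Vsig4, Clec4f, Adgre1 and Tyrobp lie wholly below 0.

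The genes furthest below the pool were cytochromes P450 of the Cyp2b family, drug- and steroid-metabolising enzymes induced through the nuclear receptor CAR. Cyp2b9 was at -2.89, -3.42, -0.75, -1.67, -2.41 and -1.39 in replicates 1 to 6, a mean of -2.09 ± 0.99 (SD, n = 6) or 4.25-fold below the pool (limma adjusted p = 0.123). Cyp2b13 followed it at -2.89, -3.00, -0.86, -1.53, -2.56 and -1.11, a mean of -1.99 ± 0.94 (SD, n = 6; limma adjusted p = 0.123). Replicates 1, 2 and 5 were lowest and replicate 3 highest for both genes, the livers' values correlated at r = 0.97 and the largest gap between both genes in 1 liver was 0.42. The WT livers reached from -1.42 to 0.32 for Cyp2b9 and from -1.26 to 0.21 for Cyp2b13, overlapping replicates 3 and 6. Whether each probe tells these near-identical copies apart is uncertain. Their promoters show how close the copies are, and the RefSeq sequences of the 250 bases before the start are printed for that reason. On GRCm38.p6 they lie at chr7:26173159-26173408 for Cyp2b9 and chr7:26061245-26061494 for Cyp2b13, both on the + strand, and they differ at 2 of 250 aligned bases (99.2% identical). Capitals mark the differing bases.
Cyp2b9: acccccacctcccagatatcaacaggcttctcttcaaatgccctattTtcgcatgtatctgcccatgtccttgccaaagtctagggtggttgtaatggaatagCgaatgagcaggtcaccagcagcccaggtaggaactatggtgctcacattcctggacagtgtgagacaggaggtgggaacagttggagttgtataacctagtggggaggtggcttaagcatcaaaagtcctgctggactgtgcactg
Cyp2b13: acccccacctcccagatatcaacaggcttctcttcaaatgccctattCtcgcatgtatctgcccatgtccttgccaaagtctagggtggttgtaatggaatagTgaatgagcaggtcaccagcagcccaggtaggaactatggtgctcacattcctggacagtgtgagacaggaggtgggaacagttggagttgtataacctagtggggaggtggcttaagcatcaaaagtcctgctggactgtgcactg

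Cyp2b10, the textbook target of CAR, lay from -1.22 to -0.21 around a median of -0.93, a mean of -0.84 ± 0.37 (SD, n = 6; limma adjusted p = 0.118). Its window on the same chromosome, at chr7:25897408-25897657, matched that of Cyp2b9 at 75.8% of 240 aligned bases, so it is the less similar copy, and its values still correlated with those of Cyp2b9 at r = 0.92. Cyp2b23 was at -0.86, -0.98, -0.09, -0.49, -0.67 and -0.95, a mean of -0.67. The glutathione transferase Gstt3 averaged -0.69 ± 0.35 (SD, n = 6), with every heterozygous liver at or below -0.16 and the WT livers between -0.16 and 0.09. Over the list of 36 measured targets of CAR and the related receptor PXR, 0 genes passed the test in either direction, 10 lay below the pool in all 6 livers (27.8%, against 3.24% of all features) and 0 above. The median of the members' means was -0.21 against 0.01 over all features, and 33 of the 36 means were below 0. Several members are close copies of each other, so the 36 are not independent counts. Replicate 3 was nearest to the pool for 17 of the 36 members and replicate 5 for 1. With the sign of replicate 5 turned the median was -0.08. The 10 members then drop out by construction, and no other member was below the pool in all 6. Without replicate 5 the count was 10 of 36 with a median of -0.18.

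Genes that are higher in female than in male mouse liver form an overlapping list, which holds Cyp2b9, Cyp2b13 and Hao2. Of 37 measured, 1 passed the test, the lower Hao2, and 6 lay below the pool in all livers (16.2%, against 3.24% of all features). With the sign of replicate 5 turned these 6 drop out by construction, and 0 others lay below. Cyp17a1, a steroid hydroxylase on that list, was at -1.09, -1.27, -0.49, -1.62, -1.24 and -0.02, a mean of -0.96 ± 0.59 (SD, n = 6; limma adjusted p = 0.192). Fmo1, a flavin monooxygenase, was between -0.38 and -0.05. Of the 33 measured male-biased genes, 4 lay above the pool in all 6 livers (12.1%, against 5.21% of all features) and 0 below. Among the 4 were the fatty acid hydroxylase Cyp4a12a at 0.05 to 0.94 and the complement regulator Susd4 at 0.02 to 0.55. With the sign of replicate 5 turned the 4 drop out by construction, and 0 were above and 1 below. The sources used here do not give the sexes of the pooled mice, and the 5 measured Y-linked genes had a median of 0.03. What part the sex of the pooled mice plays in both lists was not tested.

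A few further genes lay well below the pool, within wide WT ranges. Fkbp5, a co-chaperone of the glucocorticoid receptor that its ligand induces, was at -0.86, -0.89, -0.10, -1.16, -0.87 and -1.25, a mean of -0.86 ± 0.41 (SD, n = 6; limma adjusted p = 0.125). Only replicate 3 came close to the pool, and the WT livers ran from -1.49 to 0.77. Got1, the cytosolic aspartate aminotransferase, ranged from -1.03 to -0.41 around -0.71, with WT livers from -0.82 to 0.84. The cell cycle inhibitor Cdkn1a ranged from -0.57 to -0.23, and glucose-6-phosphatase, G6pc, from -0.79 to -0.21. Lpin1, which makes diacylglycerol and is induced by fasting, averaged -1.19 ± 0.81 (SD, n = 6), with replicate 3 at 0.26 above the pool and the other 5 livers between -1.94 and -0.84. Of the 15 measured genes of the fasting list, which holds Cdkn1a, G6pc and Lpin1, 0 passed and 13 had a mean below 0. In all 6 livers 2 lay below the pool (13.3%, against 3.24% of all features), and the median of the list was -0.08. With the sign of replicate 5 turned these 2 drop out by construction, and 0 others lay below. Rgs16, a regulator of G protein signalling that feeding and the clock control in liver, ranged from -2.00 to -0.21 with a mean of -1.05. Of the 19 measured clock genes, whose members peak in opposed phases, 10 had a mean above 0 and 9 below, and Arntl, the clock activator BMAL1, was between -0.32 and -0.08.

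The receptor's own pathway was counted in a list of its components and a list of its response genes. Of the 21 measured ligands, receptors and Smads, 0 passed the test, 0 lay on the same side in all 6 livers, and the median SD of 0.10 was that of all features (0.11), while 2 lay below in all 6 with the sign of replicate 5 turned. Among 24 measured response genes 0 passed and 17 had a mean below 0. Col1a1, Ccn2 and Cdkn1a, 3 of the 24, lay below the pool in all 6 livers (12.5%, against 3.24% of all features). Without replicates 4 and 5 the count below was 9 of 24, but with fewer livers to share a sign the count over all features rises too. Col1a1, the alpha-1 chain of type I collagen, was at -1.55, -2.34, -1.29, -0.58, -0.94 and -1.02, a mean of -1.29 ± 0.61 (SD, n = 6; limma adjusted p = 0.123). Replicate 2 was lowest and replicate 4 highest, and the WT livers ran from -1.51 to 1.95, the widest WT range among the response genes named here. Col1a2, the other chain of the same collagen, was at -0.39 to 0.05, and Col3a1, a fibrillar collagen of the same cells, at -0.12 to 0.27, so neither of these chains showed the distance of Col1a1. Ccn2, connective tissue growth factor, ranged from -1.51 to -0.09 around -0.88 (limma adjusted p = 0.192), and Klf10, a transcription factor induced early by TGF-beta, from -1.10 to 0.10. The list of stellate cell and fibroblast markers had a median of -0.01 over 24 genes, with 2 below in all 6 livers (Col1a1 and Ecm1, the latter between -0.30 and -0.01). Col1a1 was the only member of that list with an SD of at least 0.5.

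Above the pool the distances were smaller, and several belonged to macrophages. Pilra, an inhibitory receptor of myeloid cells, was at 0.55, 0.60, 0.12, 0.46, 0.43 and 0.53, a mean of 0.45 ± 0.17 (SD, n = 6; limma adjusted p = 0.118), with replicate 3 well below the rest and the WT livers between -0.34 and -0.07. Csf2ra, a subunit of the GM-CSF receptor, ranged from 0.09 to 0.63 around 0.47, and here the WT livers overlapped, from -0.11 to 0.35. Fcgr3, an activating Fc receptor, ranged from 0.18 to 0.40, Folr2, a folate receptor of resident macrophages, from 0.09 to 0.44, and Plek, a protein kinase C substrate of blood cells, from 0.10 to 0.27. Replicate 3 was the lowest of the 6 livers for each of these 5 genes. On the marker list for Kupffer cells, which are macrophages resident in the sinusoids, 10 of 30 measured genes lay above the pool in all 6 livers (33.3%, against 5.21% of all features), 0 lay below and 0 passed the test. Besides Fcgr3 and Folr2 they were Clec4f, Vsig4, Adgre1, Cd68, Tyrobp, Mpeg1, Ctss and Laptm5. The defining Kupffer cell lectin Clec4f was at 0.03 to 0.35 and the complement receptor Vsig4 at 0.14 to 0.45. The members' means had a median of 0.15, and the list averaged 0.18, 0.20, 0.02, 0.11, 0.13 and 0.20 in replicates 1 to 6. In the WT livers the same average lay between -0.18 and -0.11, on the other side of the pool. Below the pool in all 4 WT livers were 15 of the 30 genes, against 5.93% of all features. With the sign of replicate 5 turned the 10 genes drop out by construction. Of the 30 genes, 1 other was then above the pool in all 6, and the median was 0.12. Without replicates 4 and 5 the count above was 14, where fewer livers have to share a sign and the count over all features also rises. The scavenger receptor Marco did not follow the list, at -1.34 in replicate 4 and 0.90 in replicate 6.

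Related immune lists leaned the same way with smaller values. Of 12 measured genes of MHC class II presentation 4 lay above in all 6 livers (33.3%), namely H2-DMb2, Ciita, Ctss and Ifi30, with a list median of 0.07. Of 43 interferon-stimulated genes 6 did (14.0%), namely Ifit1, Irf7, Ifi27l2a, Ifi27, Lgals3bp and Iigp1, with a median of 0.09. With the sign of replicate 5 turned all of these drop out by construction, and no other member was above in all 6. The medians were then 0.03 and 0.02. Irf7, a transcription factor of the interferon response, was at 0.38, 0.35, 0.06, 0.56, 0.51 and 0.15, and replicate 3 was the lowest liver for 28 of the 43 genes. That list averaged -0.19 in replicate 3 and 0.09 to 0.23 in the other 5 livers. Above the pool in all 6 livers were also 2 of 19 neutrophil genes (10.5%), 1 of 24 lymphocyte genes (4.17%) and 2 of 26 sinusoidal endothelial genes (7.69%), closer to the 5.21% of all features.

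Genes of other kinds also lay above the pool. Fabp1, the abundant fatty acid binding protein of hepatocytes, had the largest mean of the named genes above the pool in all 6 livers, 0.48 ± 0.38 (SD, n = 6; limma adjusted p = 0.244), with values of 0.88, 0.12, 0.58, 0.93, 0.04 and 0.35 that show replicates 1, 3 and 4 high and replicates 2 and 5 close to the pool. C9, the last component of the complement lytic pore, was at 0.25, 0.81, 0.12, 0.37, 0.77 and 0.08. Foxa3, a liver transcription factor, was tight at 0.22 to 0.54 (mean 0.35 ± 0.11, SD, n = 6; limma adjusted p = 0.118), and the kinase Sik1 ranged from 0.12 to 0.64. Cabyr, Kif26b and Pcolce2 had means of 0.43, 0.39 and 0.37. In cholesterol synthesis, 3 of 20 measured genes lay above in all 6 livers (15%, against 5.21% of all features). They were Sqle at 0.05 to 0.72, Insig1 at 0.02 to 0.58 and Cyp51 at 0.02 to 0.37. Insig2, which restrains the same pathway and is not on the list, was at -0.89 to -0.10. On the urea cycle and periportal list 3 of 17 genes lay below in all 6 (17.6%, against 3.24% of all features). They were Asl at -0.84 to -0.18, Ass1 at -0.45 to -0.03 and G6pc, and 15 of the 17 means were below 0.

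The second question was how far the 6 livers differed among themselves. Over all features the SD had a median of 0.11, with a 10th percentile of 0.05 and a 99th percentile of 0.51. An SD of at least 0.5 was reached by 234 features (1.06%), among them 179 named genes, and 30 named genes reached 1. In 90 of the 179, at least 50% of the squared deviations came from a single liver, which was replicate 6 in 41 of them, replicate 5 in 21 and replicate 4 in 12. Replicates 5 and 6 together carried most of the spread over all features, 24.1% and 27.1% of the squared deviations, against 9.69% to 15.4% for each other liver. The first component of a singular value decomposition held 35.9% of the spread and set replicate 6 (loading 0.83) apart from replicates 4 and 5, and the second held 27.9% and set replicate 5 apart (0.81). The WT livers had a median SD of 0.09, and 64 of the 179 genes (35.8%) also had an SD of at least 0.5 there. Of all 16383 named genes, 148 had such an SD in the WT livers.

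**Figure D2:**
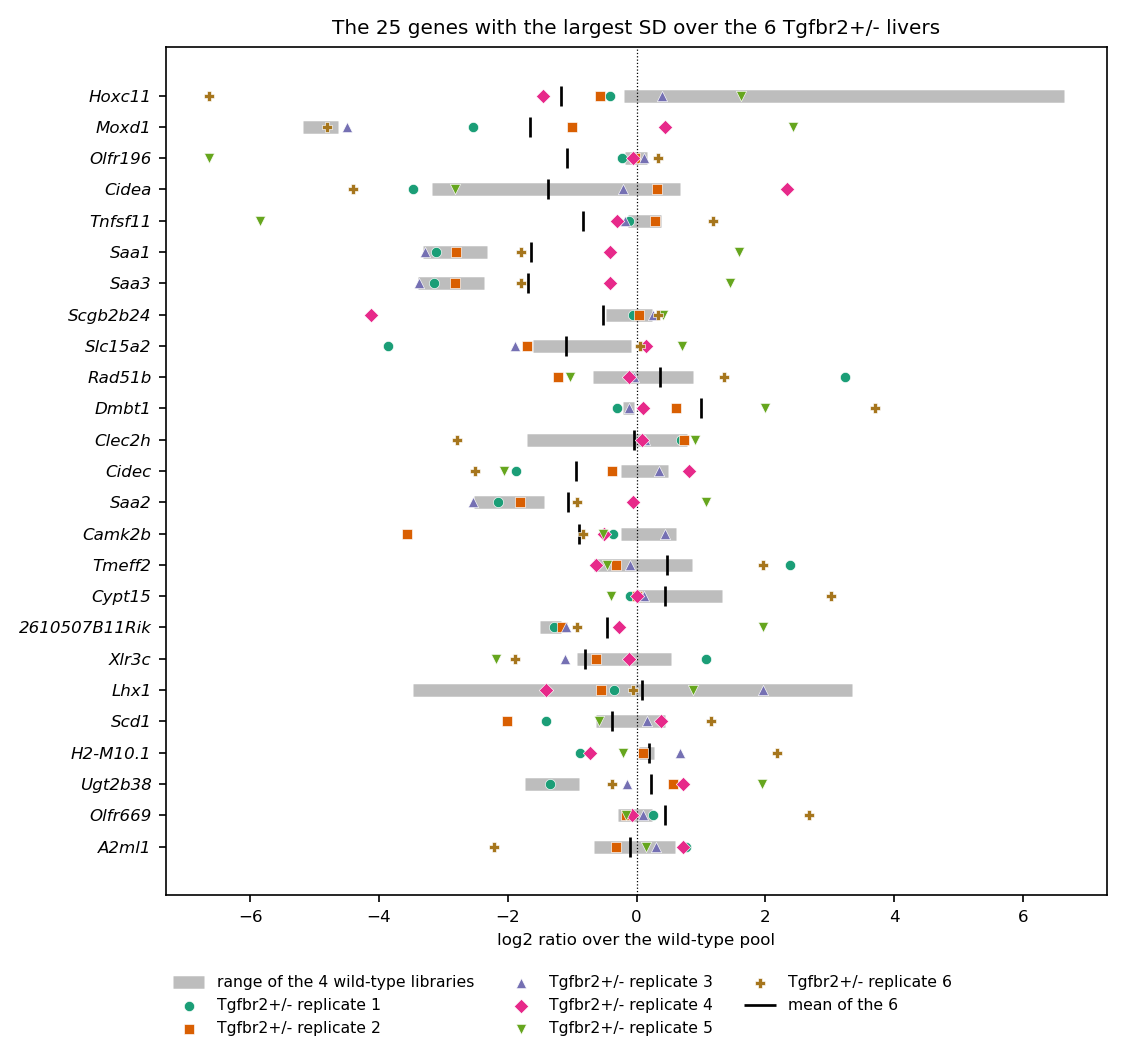
Each row is 1 of the 25 genes with the largest SD over the 6 Tgfbr2+/- livers, and the horizontal axis is the log2 ratio over the wild-type pool. Symbols are the livers, black ticks their mean and grey bars the range of the 4 wild-type livers. Olfr196, Tnfsf11, Scgb2b24, Cypt15 and Olfr669 owe their spread mostly to 1 liver each, whereas Cidea and Moxd1 are spread over several. Saa1 and Saa3 lie between, with 57.2% and 55.4% of their squared deviations in replicate 5.

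Acute phase genes were among those with the widest spread. Serum amyloid A proteins are made by hepatocytes in inflammation, and Saa1 was at -3.11, -2.80, -3.29, -0.41, 1.60 and -1.79 in replicates 1 to 6 (mean -1.63 ± 1.91, SD, n = 6). Replicates 1 to 3 lay within the WT range of -3.32 to -2.32, replicates 4 and 6 above it, and replicate 5 above the pool. Saa2 followed at -2.15, -1.80, -2.54, -0.06, 1.08 and -0.93, and Saa3 at -3.15, -2.82, -3.38, -0.42, 1.45 and -1.79. Saa1 and Saa3 differed by at most 0.15 in any liver, so their probes may not be independent readings. Saa4, the constitutive member of the family, stayed between -0.13 and 0.13. The 250 bases before the start of Saa1 and Saa2, which move together here, are printed from RefSeq to show what both share. On GRCm38.p6 they lie at chr7:46742981-46743230 on the - strand for Saa1 and chr7:46751583-46751832 on the + strand for Saa2. They are identical at 95.6% of 249 aligned bases, with 11 mismatches, and capitals mark bases that differ or have no partner.
Saa1: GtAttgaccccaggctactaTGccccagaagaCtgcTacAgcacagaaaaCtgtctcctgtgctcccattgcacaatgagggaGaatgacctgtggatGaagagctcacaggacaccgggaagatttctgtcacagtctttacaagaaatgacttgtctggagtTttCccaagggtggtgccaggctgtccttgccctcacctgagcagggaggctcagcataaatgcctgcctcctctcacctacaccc
Saa2: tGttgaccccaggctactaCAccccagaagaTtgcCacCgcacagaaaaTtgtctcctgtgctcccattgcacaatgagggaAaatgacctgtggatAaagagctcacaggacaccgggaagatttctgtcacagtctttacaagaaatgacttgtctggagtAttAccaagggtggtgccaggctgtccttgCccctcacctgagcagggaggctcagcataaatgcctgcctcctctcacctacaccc

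The consensus of NF-kappaB, the inflammatory transcription factor, was searched in these windows on both strands. The Saa1 window held 1 match, ggagttttcc, starting 91 bases before the start, and the Saa2 window held none. Saa3, whose window at chr7:46715677-46715926 was 59.4% identical to that of Saa1 over 224 aligned bases, held none either. A match occurred in 16.9% of 32536 distinct promoter windows of the same length, so it describes these letters only.

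Other acute phase genes had a smaller span, and replicate 5 was the highest liver for 17 of the 29 measured. Orm2, an orosomucoid, was at -0.21, -0.33, -0.46, 0.12, 1.02 and 0.18 and correlated with Saa1 at r = 0.95, as did hemopexin, Hpx. Lcn2, an iron-sequestering lipocalin, was between -0.28 and -0.01 in 5 livers and at 0.94 in replicate 5, with r = 0.89. These likenesses rest partly on replicate 5: without it r with Saa1 was 0.84 for Orm2, 0.86 for Hpx and 0.70 for Lcn2, and with its sign turned 0.25, 0.43 and -0.05. For haptoglobin, Hp, r was 0.76, and 0.28 without replicate 5, whereas Saa2 kept 0.99 both ways. Of the 29 measured genes of the acute phase list 7 reached an SD of 0.5, against 1.06% of all features. The median SD of the list was 0.32 against 0.11 over all features. That median was 0.20 without replicate 5 and 0.27 with its sign turned. The list averaged -0.34, -0.34, -0.53, 0.07, 0.39 and -0.24 in replicates 1 to 6 and between -0.46 and -0.25 in the WT livers. Below the pool in all 4 WT livers were 9 of its genes, against 5.93% of all features. Replicates 4 and 5 were thus the only livers of either group whose average lay above the pool, and without Saa1, Saa2 and Saa3 the other 26 genes averaged 0.11 and 0.28 in them and -0.24 to -0.06 in the other 4 livers. Without replicates 4 and 5, 9 of the 29 lay below the pool in all livers, against 1 in all 6. Fewer livers then have to share a sign, and the count over all features rises as well. The coagulation and complement list, also made by hepatocytes, had a median SD of 0.16. The uncharacterised 2610507B11Rik shared the pattern, with replicate 5 at 1.96 and the other livers between -1.28 and -0.28. Its r with Saa1 was 0.95, and its WT livers were between -1.49 and -1.18. The SD of Saa1 without replicate 5 was 1.20, and with the sign of replicate 5 turned it was 1.11. Hamp, the iron hormone hepcidin, which inflammation induces, ran against this order, with its lowest values in replicate 5, at -1.53, and replicate 6, at -1.66.

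Moxd1, a monooxygenase-like protein that is male-biased in mouse liver, had the second largest SD, 2.84, or 2.01 with the sign of replicate 5 turned, rank 7. It was at -2.54, -1.00, -4.50, 0.44, 2.44 and -4.81, while the 4 WT livers stayed between -5.18 and -4.64. Replicates 3 and 6 reached the level of the WT livers or came near it, and replicates 4 and 5 lay above the pool. The genes with the most similar profile over the 6 livers, out of 844 with an SD of at least 0.3, were Serpina12 (r = 0.97), an insulin-sensitising serpin, Itih3 (0.93), a hyaluronan-binding protein of plasma, Qprt (0.92), an enzyme of NAD synthesis, the uncharacterised 2010106E10Rik (0.92) and Serpina3n (0.92), an acute phase serpin. The lowest correlations were those of Olfr444 (-0.96), Nkx3-2 (-0.96) and Zfp385c (-0.95). Without replicate 5 the values for Serpina12 and Itih3 were 0.94 and 0.97, and with its sign turned they were 0.61 and 0.57. These genes were picked for their likeness over 6 points that share the pool, so the correlations describe the livers and carry no test.

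The next pattern was led by Cidea, a protein that enlarges lipid droplets. Cidea was at -3.47, 0.32, -0.21, 2.34, -2.82 and -4.40 in replicates 1 to 6 (SD 2.59), so that replicates 1, 5 and 6 were far below the pool, replicates 2 and 3 near it and replicate 4 far above. The WT livers also spread widely, from -3.18 to 0.68. Its relative Cidec was at -1.86, -0.39, 0.35, 0.82, -2.06 and -2.51 and correlated with it at r = 0.96, although the WT livers stayed within -0.24 to 0.49. Clstn3 (r = 0.999), Mogat1 (0.98), which makes diacylglycerol, Omd (0.97), an extracellular matrix proteoglycan, the fatty acid transporter Cd36 (0.97) and the trehalase Treh (0.96) completed the 6 genes most like Cidea. Clstn3 followed it most closely of all with an SD of 0.49, from -0.77 in replicate 6 to 0.55 in replicate 4. The order was opposite for Cd276 (r = -0.96), an immune checkpoint ligand, and Sptlc3 (-0.96), a subunit of the enzyme that starts sphingolipid synthesis. With the sign of replicate 5 turned, Mogat1 and Cidec kept r at 0.99 and 0.96 and Treh was at 0.87. Plin4, a lipid droplet coat protein, was at -1.07, -0.25, 0.38, -0.54, -1.84 and -1.99, and Hamp correlated with Cidec at r = 0.94.

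Several of these genes also belong to adipose tissue, so that tissue's markers are given beside them. The list of 16 measured adipose genes averaged -0.43, -0.03, 0.01, 0.21, -0.42 and -0.67 in replicates 1 to 6. An SD of at least 0.5 was reached by 3 of the 16, Cidea, Cidec and Plin4, against 1.06% of all features. Without these 3 the other 13 averaged between -0.14, in replicate 6, and 0.06, in replicate 4, so the list's average was carried by genes of the pattern itself. The hormones that define fat cells did not take part: Adipoq was between -0.06 and 0.12, Lep between -0.18 and 0.21 and Retn between -0.07 and 0.15. Log ratios do not show whether these hormones were expressed at all in the livers. The lipid-droplet regulator Pparg was between -0.17 and 0.47, highest in replicate 4. Of the 34 measured PPAR-alpha targets and oxidation genes, 4 had an SD of at least 0.5 (Cd36, Cidec, Cidea and Mogat1), and the list averaged -0.34, -0.32 and -0.35 in replicates 1, 5 and 6 against 0.01 to 0.07 in the other livers. Without those 4 genes the other 30 averaged -0.15, 0.05, 0.07, -0.14, -0.12 and -0.07 in replicates 1 to 6, and replicate 4 no longer stood with replicates 2 and 3.

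**Figure D3:**
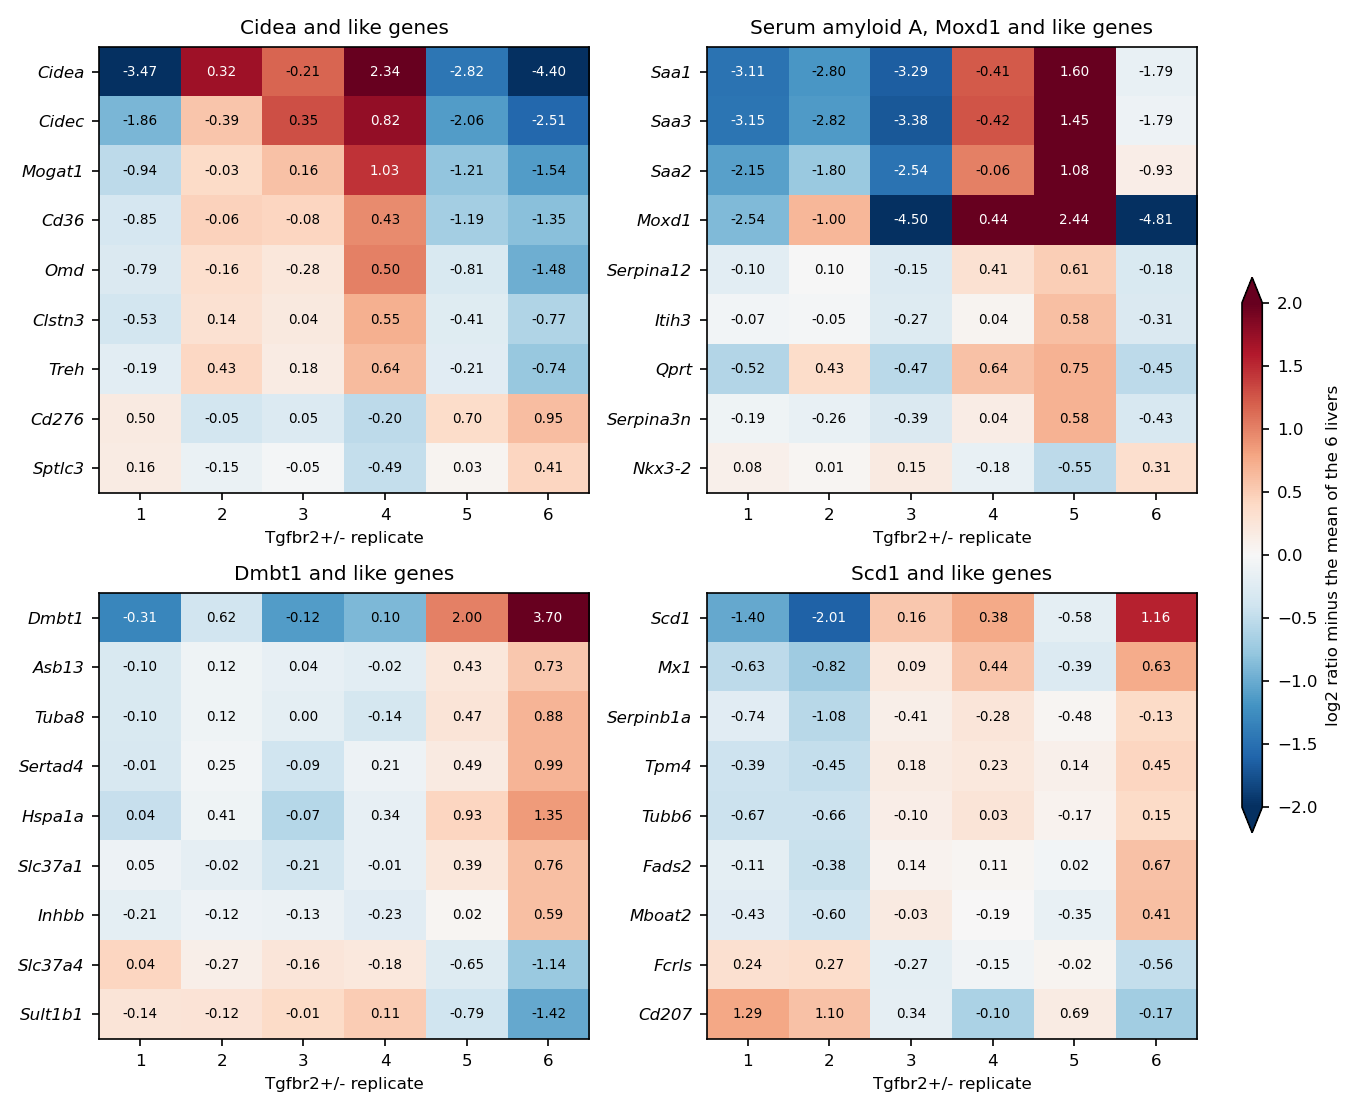
Each panel is a gene with a large spread and genes most or least like it over the 6 Tgfbr2+/- livers, except that the upper right panel adds the serum amyloid A genes. Columns are replicates, the printed number is the log2 ratio over the wild-type pool, and colour is that ratio minus the mean of the 6 livers. Replicate 4 is highest and replicate 6 lowest for Cidea and the 6 genes below it, replicate 5 is highest for Saa1 to Serpina3n, and replicate 6 is highest for Dmbt1 and for Scd1.

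Dmbt1, a mucin-like scavenger protein of epithelia, marked replicates 5 and 6. It was at -0.31, 0.62, -0.12, 0.10, 2.00 and 3.70 (SD 1.56), and all 4 WT livers were between -0.21 and -0.03. Most like it were Asb13 (r = 0.99), the tubulin Tuba8 (0.99), Sertad4 (0.98), the inducible chaperone Hspa1a (0.98), Slc37a1 (0.95) and Inhbb (0.95), an activin subunit. Hspa1a was at 0.04, 0.41, -0.07, 0.34, 0.93 and 1.35, with the WT livers between -0.41 and 0.31. The lowest r was -0.99 for Slc37a4, the glucose-6-phosphate transporter, at 0.04 in replicate 1 and -1.14 in replicate 6, and that of the sulfotransferase Sult1b1 was -0.97. The other heat shock genes took a partly different order: Hsp90aa1, Hsph1 and Hspb1 were lowest in replicate 1 and highest in replicate 6, and also above the pool in replicate 3. In replicate 5 Hspb1 was at 0.55 and Hsp90aa1 at 0.22, and Hspb1 correlated with Hspa1a at r = 0.67. Hsph1 and Hsp90aa1 correlated with each other at r = 0.98 but with Hspa1a at 0.58 each. Over 19 measured heat shock genes the list averaged from -0.17 in replicate 1 to 0.25 in replicate 6. Hspa1a has a near-identical copy, so its probe may read both.

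Scd1, the desaturase that makes oleate, was at -1.40, -2.01, 0.16, 0.38, -0.58 and 1.16 (SD 1.18), with the WT livers between -0.63 and 0.44. It became a reference profile only when genes with 50% or more of their squared deviations in 1 liver were passed over, a choice made after the values had been seen. Like it were the interferon-induced Mx1 (r = 0.98), the protease inhibitor Serpinb1a (0.98), Tpm4 (0.97), Tubb6 (0.96), the fatty acid desaturase Fads2 (0.94) and Mboat2 (0.93), and opposite were Fcrls (-0.97) and the Langerhans cell lectin Cd207 (-0.95). On the lipogenesis list 6 of 22 measured genes had an SD of at least 0.5, against 1.06% of all features. They were Scd1, Thrsp, Aacs, Me1, Elovl6 and Elovl5, and the median SD of the list was 0.35. Without replicates 4 and 5, 4 of the 22 lay below the pool and 2 above in all livers, against 0 and 0. With fewer livers to share a sign, such counts rise over all features too. The list averaged -0.36 and -0.55 in replicates 1 and 2, -0.26 in replicate 5 and from -0.01 to 0.19 in replicates 3, 4 and 6. Thrsp, a regulator of lipogenic enzymes, broke from Scd1 in replicate 6, at -1.97. Fasn, fatty acid synthase itself, was between -0.94 and 0.12.

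The remaining reference profiles turned largely on 1 or 2 livers. The homeobox gene Hoxc11 had the largest SD of all, 2.87 (2.52 with the sign of replicate 5 turned, when Cidea ranked first at 2.96), with replicate 6 at the limit of the scale (-6.64, 100-fold) and the other 5 livers between -1.45 and 1.62. Ucma, a matrix protein of cartilage, was most like it (r = 0.99, and 0.93 without replicate 6). Slc15a2, a peptide transporter, was at -3.85 in replicate 1 and between -1.90 and 0.71 elsewhere, with Depp1 (r = 0.97) most like it and the steroid sulfate transporter Slc10a6 (-0.98) least. These were 0.43 and -0.34 with the sign of replicate 5 turned. Rad51b, a recombination gene, was at 3.23 in replicate 1 and 1.37 in replicate 6, and Cyp2c67 was most like it (r = 0.94). Xlr3c, an X-linked gene, ran from 1.09 in replicate 1 to -2.18 in replicate 5. Genes such as Hoxc11 and the olfactory receptors are not usual liver genes, and without intensities it cannot be said whether their spots lay above background.

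The 18 measured gene pairs are known to act together, except that Arntl and Dbp are known for opposed phases. Over the 6 livers 12 of the 18 had a correlation above 0 and the median r was 0.39, with the opposed pair counted among the others. Saa1 and Saa2 were the only pair past an exact permutation test over all 720 pairings after adjustment over the 18 (Pearson's r = 0.99, two-sided p = 0.00139, the smallest p this design allows, adjusted p = 0.0250). Their Spearman's rho was 1.0 (exact permutation p = 0.00278, adjusted p = 0.05), and r was 0.99 without replicates 4 and 5. The promoter windows of Saa1 and Saa2 are 95.6% identical. Whether each probe tells these copies apart is uncertain, so the pair may not be 2 independent readings. Cyp2b9 and Cyp2b10 came next (r = 0.92, exact permutation p = 0.00694, adjusted p = 0.0625; rho = 0.94, exact permutation p = 0.0167, adjusted p = 0.150), with r = 0.85 without replicates 2 and 3. The fatty acid hydroxylases Cyp4a10 and Cyp4a14 (r = 0.93, exact permutation p = 0.0236), the clock genes Arntl and Dbp, which peak in opposite phases (r = -0.84, p = 0.0361 by the same exact test), and the metallothioneins Mt1 and Mt2 (r = 0.85, p = 0.0431 by the same exact test) had adjusted p-values of 0.142 to 0.155. Their Spearman's rho was 0.89, -0.83 and 0.77 (exact permutation p = 0.0333, 0.0583 and 0.103). Without the 2 livers farthest from the median of the first gene their r was 0.89, -0.55 and 0.999, so the clock pair rests on replicates 1 and 6. Pairs that showed little likeness included the cholesterol synthesis enzymes Hmgcs1 and Sqle (r = -0.19, rho = -0.26), the immediate-early genes Fos and Egr1 (r = 0.15, rho = 0.03) and the Kupffer cell markers Cd5l and Vsig4 (r = 0.52, rho = 0.09), with exact permutation p-values for r of 0.738, 0.801 and 0.290. Some pairs ran opposite: the clock repressors Per2 and Nr1d1 (r = -0.77, rho = -0.37), Igfbp1 and Pck1 of the fasting response (-0.56, -0.60) and the male-biased Cyp7b1 and Elovl3 (-0.43, -0.26). Their exact permutation p-values for r were 0.114, 0.242 and 0.433. Without the 2 livers farthest from the median of the first gene r was -0.35, -0.27 and -0.85. With the sign of replicate 5 turned 6 pairs passed, and after quantile normalization none did.

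**Figure D4:**
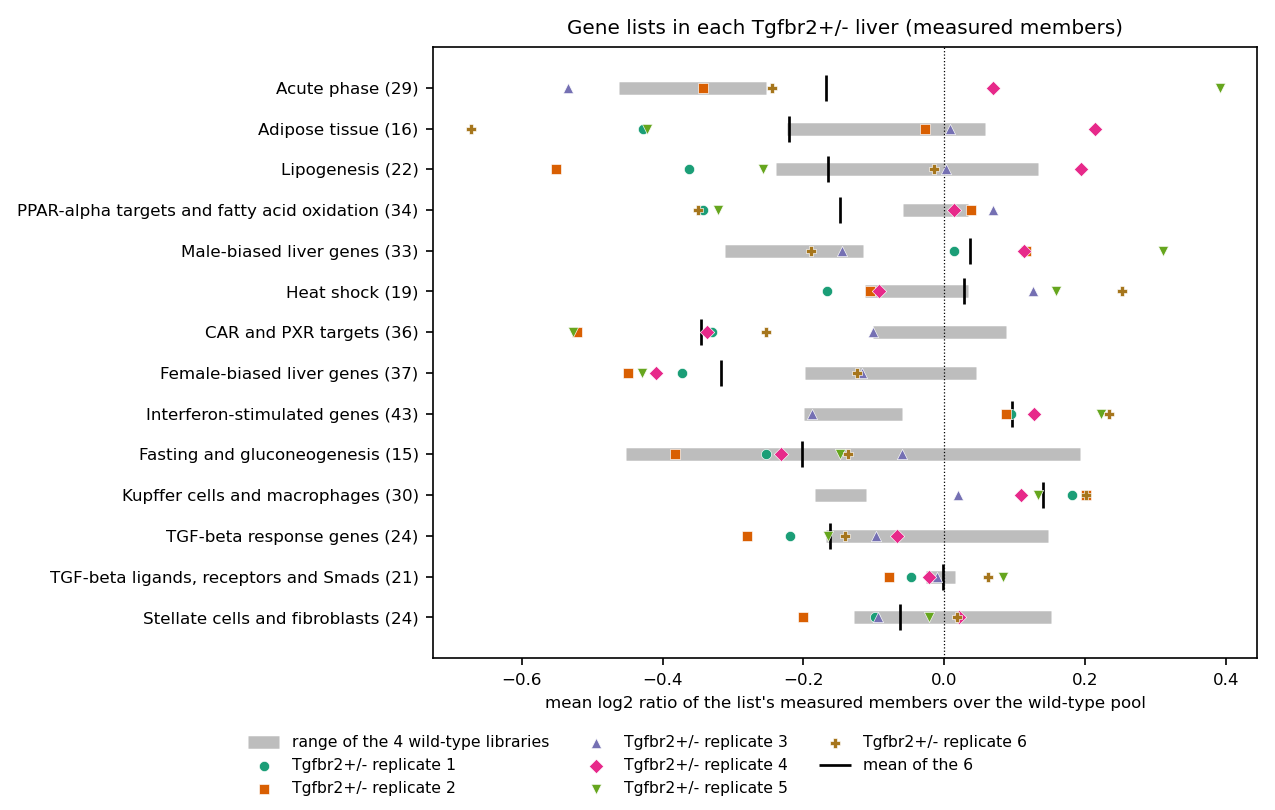
Each row is a gene list with the number of its measured members in brackets, and the horizontal axis is the mean log2 ratio of those members over the wild-type pool in each liver. Symbols are the 6 Tgfbr2+/- livers, black ticks their mean and grey bars the range of the 4 wild-type livers. The acute phase list runs from -0.53 in replicate 3 to 0.39 in replicate 5, the CAR and PXR list is below 0 in all 6 livers, and the Kupffer cell list is above 0 in all 6.

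Averages of housekeeping lists stayed near the pool, and the lowest came from replicates 5 and 6. The list averages over the 43 measured genes of the cytosolic ribosome ran from -0.12 to 0.08, those over 47 genes of oxidative phosphorylation from -0.16 to 0.04 and those over 28 proteasome genes from -0.13 to 0.04. Each had a median SD between 0.10 and 0.12, close to the 0.11 of all features, and no member with an SD of 0.5 or more. Replicate 5 was lowest for 29 of the 47 oxidative phosphorylation genes (61.7%) and 15 of the 28 proteasome genes (53.6%). Over all named genes it was lowest for 23.5%. Its averages on these lists lay below the WT ranges of 0.005 to 0.064 and -0.017 to 0.037. Replicate 6 was lowest for 22 of the 43 ribosomal genes (51.2%), against 23.2% of all named genes. Its average of -0.12 lay below the WT range of -0.03 to 0.10. The lists of muscle genes, with averages between -0.05 and 0.02, and of pancreatic genes, between -0.01 and 0.13, lay close to the pool too. An exception on the pancreatic list was the trypsin inhibitor Spink1, at 0.52 in replicate 5, 1.59 in replicate 6 and between -0.19 and 0.13 in the other 4 livers. Of the 22 measured pancreatic genes 4 lay above the pool in all 6 livers (18.2%, against 5.21% of all features). Their distances were small, but 18 of the 22 means were above 0. In all 4 WT livers 4 of the 22 were above the pool. Among immediate-early genes Egr1 ranged from -0.32 to 1.17, with replicates 4 and 5 highest and all 4 WT livers between -1.14 and -0.47, while Dusp1 ran from -0.82 in replicate 6 to 0.62 in replicate 2.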

How the data were processed

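The deposited table of log10 ratios, 1 column per liver over the pool of 6 wild-type mice, was used as the authors made it. Per the labels, RNA was extracted on columns with DNase treatment, amplified with aminoallyl labelling and hybridised on 2-colour arrays with dye swaps. The sources used here do not give how both orientations entered a column. The base of the log was inferred from values stopping at exactly ±2, and values were multiplied by 3.3219 to give log2. Column medians were 0.0019 to 0.0031, so columns are nearly centred, and the direction of the ratio is likely, not stated.

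Of 23438 probes, 17726 had 1 gene symbol in the platform annotation, 50 had several and 5662 are unnamed here. Probes of 1 gene were averaged (1142 genes, 520 of them with probes that disagree in sign), which left 22095 features, 16383 of them named genes. No filter was applied. The mean of the 6 livers was tested against 0 with limma 3.58.1 in R 4.3.3 (lmFit and eBayes, Benjamini-Hochberg adjustment over all features), a test first tested on simulated data. Spread is the SD, components come from a singular value decomposition, and pairs were tested by exact permutation (Python 3.11.15, numpy 2.4.6, pandas 2.3.3). Promoters of 6 of 6 genes matched were aligned with Biopython 1.88.

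Named genes were the 15 per direction with the smallest p and the 10 with the largest mean among genes on the same side in all 6 livers, the 25 with the largest SD, 3 per list by mean and by SD, and the 6 most and 3 least like 6 reference profiles taken down the order of SD (r with earlier ones under 0.7). The other genes with values, such as Cyp2b23, Sult1d1, Insig2, Clec4f, Adgre1, Tyrobp, Fmo1, Col1a2, Col3a1, Saa4, Hpx, Hsph1, Adipoq, Lep, Retn and Pparg, were chosen after the values were seen. Livers, the 40 gene lists and the pairs were chosen with earlier results of these data known. Alternatives were other scalings, the sign of replicate 5, single probes, weights, a robust prior and livers left out.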

Additional observations from a re-analysis of the deposited data

Results flagged for a closer look

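Among 56 genes reported in detail, 11 had 1 liver far from the other 5, judged by its gap to the nearest liver divided by the range of all 6 (Dixon's ratio, past the usual critical value for 6 samples). A rate of 1 in 20 would give 2.8 among 56 genes not chosen by their spread. The genes with the largest SD were looked at because of their spread, and 1 far liver makes an SD large. The 2.8 is therefore no baseline for the 11.

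Replicate 6 stood apart for Cypt15 (3.02, ratio 0.850), Olfr669 (2.68, ratio 0.852), Clec2h (-2.79, ratio 0.777), A2ml1 (-2.21, ratio 0.638) and Hoxc11 (-6.64, ratio 0.628). Replicate 5 stood apart for Olfr196 (-6.64, ratio 0.919), Tnfsf11 (-5.85, ratio 0.789) and 2610507B11Rik (1.96, ratio 0.690). Scgb2b24 stood apart in replicate 4 (-4.12, ratio 0.895) and Camk2b in replicate 2 (-3.57, ratio 0.682). The only gene of the 11 above the pool in all 6 livers was Pilra, with replicate 3 low at 0.12 (ratio 0.638). The values of Hoxc11 and Olfr196 at -6.64 are at the limit of the deposited scale.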

How the results depend on the processing

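The count of 3 features past limma's threshold was 0 with the sign of replicate 5 turned, 1 without replicates 4 and 5 and 1 when all 10 libraries shared the variance estimate, and it ran from 0 to 28 when each liver was left out in turn. The count of 1868 features on the same side in all livers ran from 2168 to 3380 with 1 liver left out and was 4747 without replicates 4 and 5, where fewer livers have to share a sign. The first component's share of 35.9% was 29.4% after quantile normalization, 40.6% to 48.4% with 1 liver left out and 56.6% without replicates 4 and 5. The count of 234 features with an SD of at least 0.5 stayed within 1.5 times of itself, 175 to 290 with 1 liver left out. Features like a reference profile numbered 64, 92 to 164 with 1 liver left out, and 51 with the reference profiles chosen after seeing the data. The pairs past the threshold numbered 6 with the sign of replicate 5 turned, 0 after quantile normalization and 0 to 3 with 1 liver left out, against 1. For these counts the cause was not tested beyond the smaller number of livers. Over 45 named genes and 630 gene-by-alternative values of the distance, 601 kept their direction and side of the threshold. Of the rest 20 lost the threshold, 9 gained it and 0 changed direction. Only the 3 genes that had passed could lose the threshold, so all 20 losses are theirs. The 601 are mostly values of genes that had not passed, and they say little of how stable the 3 calls are. Single probes were not tried for these. No paired analysis was possible because the heterozygous livers were set against the pool alone, so no comparison between groups has numbers to pair. The number of arrays limits precision, and without spot intensities no feature could be judged against background.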
